A study of Homo sapiens with 24 samples.

Results

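Mitosis genes, meaning the kinases of the G2-M transition and the genes of the spindle, the kinetochore and cytokinesis, were followed in cultures of AGS, an established cell line from a human gastric adenocarcinoma. The 42 genes were taken by symbol from a table of 23368 genes, and all 42 were abundant enough to be among the 13947 genes tested. RNA was sequenced from 24 libraries, 4 replicates in each of 6 groups, all wild type and all harvested at 24 h. The groups were a control, PI103 at 0.7 µM, PD0325901 at 0.035 µM, (5Z)-7-oxozeaenol at 0.5 µM (oxozeaenol from here on), PI103 with oxozeaenol, and PI103 with PD0325901. PI103 inhibits PI3 kinases and mTOR, PD0325901 inhibits the kinase MEK, and oxozeaenol inhibits the kinase TAK1. In both combinations each compound was given at 50% of its single-agent concentration. Whether the control cultures were given vehicle is not stated in the labels.

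Cells make most of these transcripts late in the cell cycle. The DREAM complex holds the genes down in resting and early-cycle cells, and the MuvB core, joined by B-MYB and then by FOXM1, turns them on towards mitosis. The proteins then act in order: CDK1 with its cyclins starts mitosis, kinetochores and motors attach and align chromosomes, the spindle checkpoint holds anaphase until attachment is complete, the APC/C ubiquitin ligase releases separase, and anillin and ECT2 act in dividing the cell. In bulk RNA a smaller share of cells in G2 or mitosis and less of these transcripts in each such cell cannot be told apart.

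The libraries held 38.1 M to 84.2 M counts in genes, and the 42 mitosis genes took 0.301% to 1.05% of them. The epithelial markers EPCAM (620 to 988 CPM, the count scaled to a common library size), KRT8, KRT18, KRT19 and CLDN4 were high in every library. The markers of leukocytes (PTPRC, CD3E) and endothelium (PECAM1, CDH5) and the fibroblast markers COL1A2 and DCN were at or near 0, while the fibroblast marker COL1A1 was at 7.93 to 34.2 CPM. The second replicates with PD0325901 stood apart. Replicate 2 was the lowest library of its group for 41 of the 42 mitosis genes with PD0325901 alone and for 42 of 42 with PI103 and PD0325901, against 33% and 32.6% of all genes tested. Direct transcriptional readouts of MEK and ERK were lowest in the same libraries: ETV5 was at 13.7, 1.49, 9.32 and 8.44 CPM in PD0325901 replicates 1 to 4 and at 9.47, 0.941, 6.03 and 7.29 CPM in those of the combination, against 123 to 131 CPM in control. ETV5 was below control without PD0325901 too. It was at 46 to 51.3 CPM with PI103, 35.8 to 63.7 CPM with oxozeaenol and 47.3 to 53.9 CPM with PI103 and oxozeaenol together. DUSP6, a phosphatase of ERK, was at 1.72 CPM in PD0325901 replicate 2 and 3.71 to 4.75 CPM in the other replicates of that group. The part of these differences between replicates in the results below was not tested, and results for PD0325901 are therefore given with and without both second replicates.

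**Figure D1:**
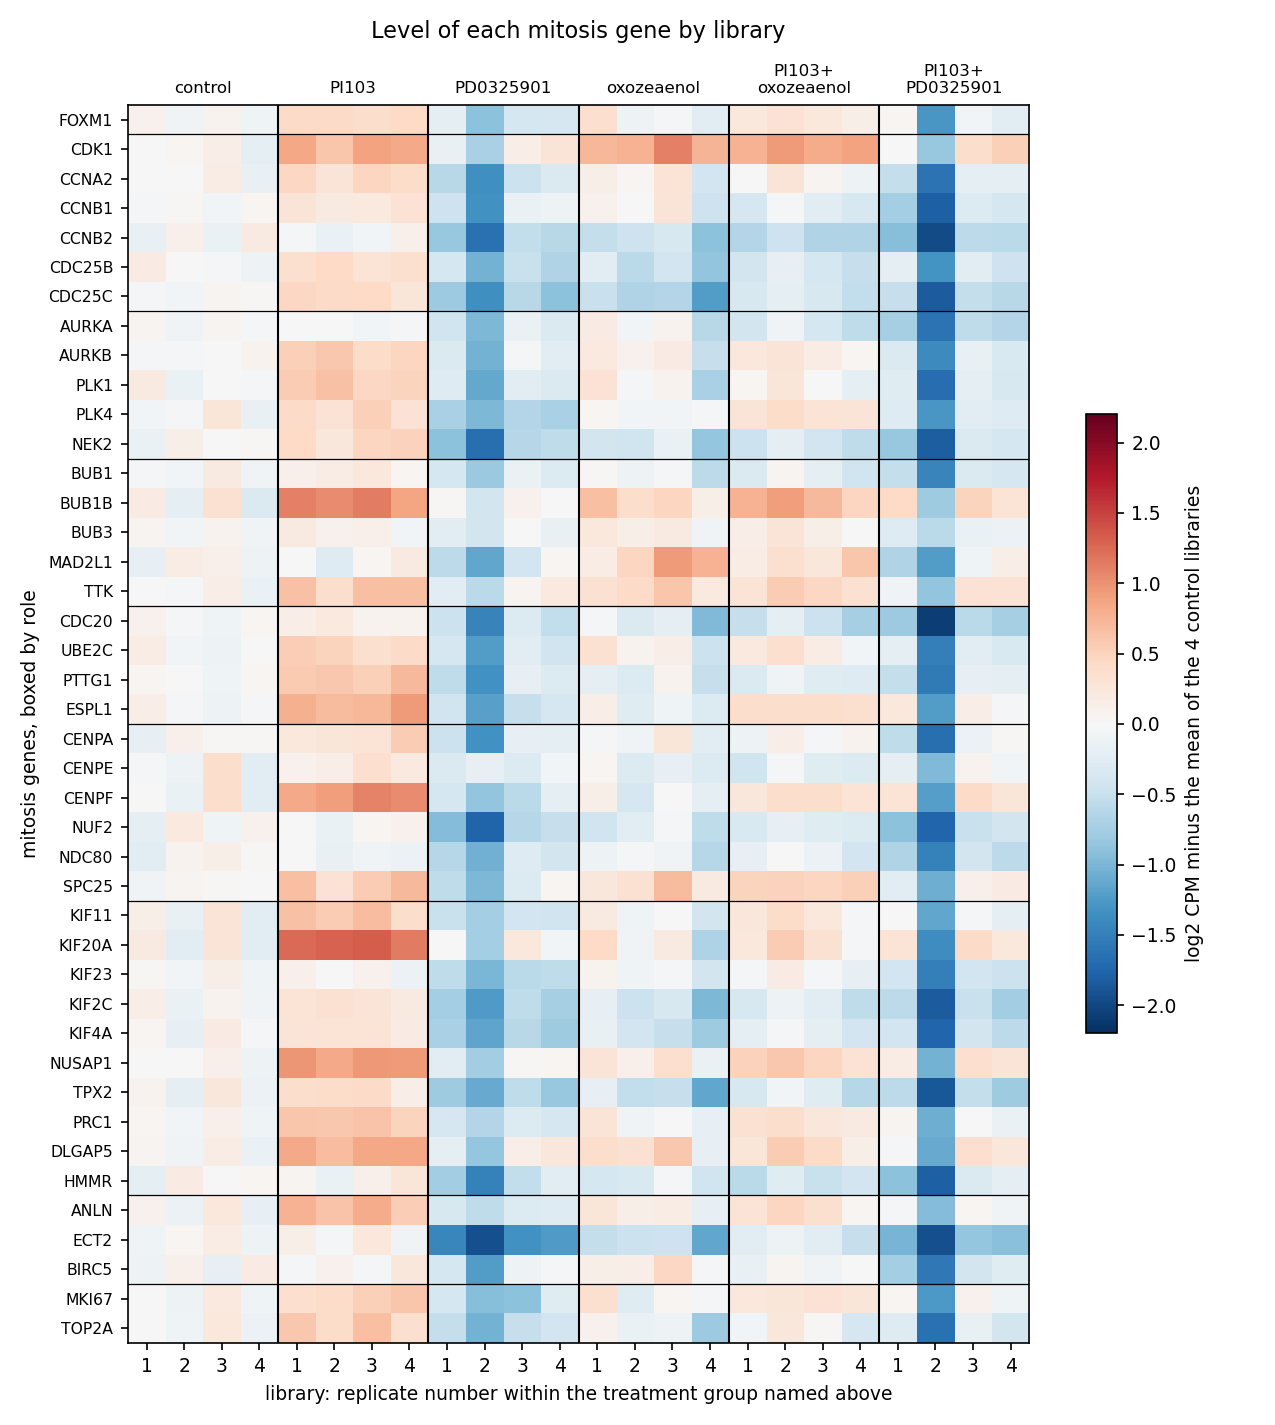
Level of each mitosis gene (rows, boxed by role) in each of the 24 libraries (columns, replicate number within the treatment named above), as log2 CPM minus the mean of the 4 control libraries, with red above and blue below control. The PI103 columns are mostly red, the PD0325901 columns mostly blue, and replicate 2 is the darkest blue column in both groups that received PD0325901.

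Many promoters of these genes share letters that the choice of genes did not use. The search itself was not independent of the class of genes, as it included the element of MuvB, which acts on such genes. The windows of all genes used for comparison were not matched for expression. RefSeq windows of GRCh38.p14, from 250 bases before to 50 bases after the most upstream start, were found for 35 of the 42 genes. The cell-cycle genes homology region (CHR), the element bound by the LIN54 subunit of MuvB, was searched as TTTGAA or TTCGAA on both strands, and 25 of the 35 windows (71.4%) held it, against 16.7% of 27305 windows of all genes. It began within 50 bases of the start in 21 of 35 (60%), against 5.07% of all windows. CCAAT, the letters of the NF-Y element, searched on both strands, occurred in 26 of 35 windows (74.3%) against 35.7%, and both motifs together occurred in 20 (57.1%) against 6.63%. An E2F-type element, searched on both strands as TTTCCCGC, TTTGGCGC, TTTCGCGC or TTTGCCGC, was in 3 windows (8.57%), against 3.34%. Matches of different motifs were counted separately and may share bases, and a match in these letters is no measured binding site.

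The promoters of 4 genes are shown as far as they lie before the start, all on the + strand of GRCh38: ECT2 (chr3:172750476-172750675), ESPL1 (chr12:53268049-53268298) and CENPF (chr1:214602945-214603194), the 3 genes that differed most between PD0325901 and PI103, and CDK1 (chr10:60778081-60778330), which rose with oxozeaenol. Capitals mark CHR and CCAAT letters, with ATTGG being CCAAT read on the other strand.
ECT2: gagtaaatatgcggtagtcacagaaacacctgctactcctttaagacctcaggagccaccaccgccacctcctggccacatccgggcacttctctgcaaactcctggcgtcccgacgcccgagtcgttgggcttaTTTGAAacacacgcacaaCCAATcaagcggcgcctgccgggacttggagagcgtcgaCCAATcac
ESPL1: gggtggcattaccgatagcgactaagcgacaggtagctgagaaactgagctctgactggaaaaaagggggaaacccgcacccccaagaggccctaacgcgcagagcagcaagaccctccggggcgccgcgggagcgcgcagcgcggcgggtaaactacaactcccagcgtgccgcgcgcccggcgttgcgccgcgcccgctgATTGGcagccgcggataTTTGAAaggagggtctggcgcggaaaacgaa
CENPF: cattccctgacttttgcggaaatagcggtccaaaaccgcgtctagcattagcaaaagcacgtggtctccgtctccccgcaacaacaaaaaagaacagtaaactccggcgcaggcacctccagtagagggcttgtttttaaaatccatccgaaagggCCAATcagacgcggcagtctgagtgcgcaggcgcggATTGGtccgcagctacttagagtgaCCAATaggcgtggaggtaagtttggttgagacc
CDK1: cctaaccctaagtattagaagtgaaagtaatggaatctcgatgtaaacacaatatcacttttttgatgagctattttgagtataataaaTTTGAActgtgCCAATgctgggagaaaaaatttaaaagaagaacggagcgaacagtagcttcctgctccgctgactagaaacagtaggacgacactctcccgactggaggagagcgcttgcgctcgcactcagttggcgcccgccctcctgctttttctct
The CHR letters of ESPL1 began 31 bases before its start and those of CDK1 161 bases before, and those of ECT2 lay 115 bases before (its last 50 bases before the start are not shown). CENPF has none in the bases shown, but its window holds 1 match that began at base 41 after the start. The window of ECT2 holds a further match at base 35 after the start.

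PI103 raised the mitosis genes and PD0325901 lowered them. Against control, 15 of 42 rose with PI103 and 0 fell, where 26.2% of all genes tested rose and 25.2% fell (edgeR's quasi-likelihood test, Benjamini-Hochberg adjusted p under 0.05 over all genes, which defines a call throughout). The median log2 fold change of the 42 was 0.40, against 0.02 for all genes. With PD0325901, 26 of 42 fell and 0 rose, where 29.9% of all genes fell and 28.7% rose, and the median was -0.52 against -0.02. Both comparisons use the same control libraries. Every rise or fall given as a size below is a log2 fold change with its adjusted p from that test.

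The libraries showed the same split without a test. As the mean of log2 CPM over the 42 genes, set to 0 at the control mean, the control libraries lay between -0.07 and 0.10 and the PI103 libraries between 0.36 and 0.44. The PD0325901 libraries were at -0.49, -1.06, -0.34 and -0.33. All 4 PI103 libraries lay above all 4 controls for 27 of the genes, against 24.8% of all genes tested. All 4 PD0325901 libraries lay below all 4 controls for 30 of the genes, against 24.9% of all genes. Within the 4 batches the median of PI103 minus control was 0.37, 0.46, 0.32 and 0.47, and that of PD0325901 minus control was -0.49, -0.98, -0.41 and -0.27.

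The fit shares 1 estimate of the spread over all groups, so the 2 libraries that stood apart also enter the error of the comparisons without PD0325901. With PI103, 26 genes rose when those 2 libraries were left out and 29 rose when only control and PI103 libraries were fitted. With PD0325901, the same 26 genes fell when both second replicates were left out, with a median of -0.35. When PD0325901 replicate 2 alone was left out, with the combination's replicate 2 still in the fit, 11 mitosis genes fell. That is a smaller share than the 29.9% of all genes that fell in the main fit. Without control replicate 3, 15 mitosis genes fell. The shares of all genes called in these alternative fits, and in those given in the paragraphs below, were not set beside the counts. Whether the mitosis genes stood out from all genes there is therefore not shown.

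**Figure D2:**
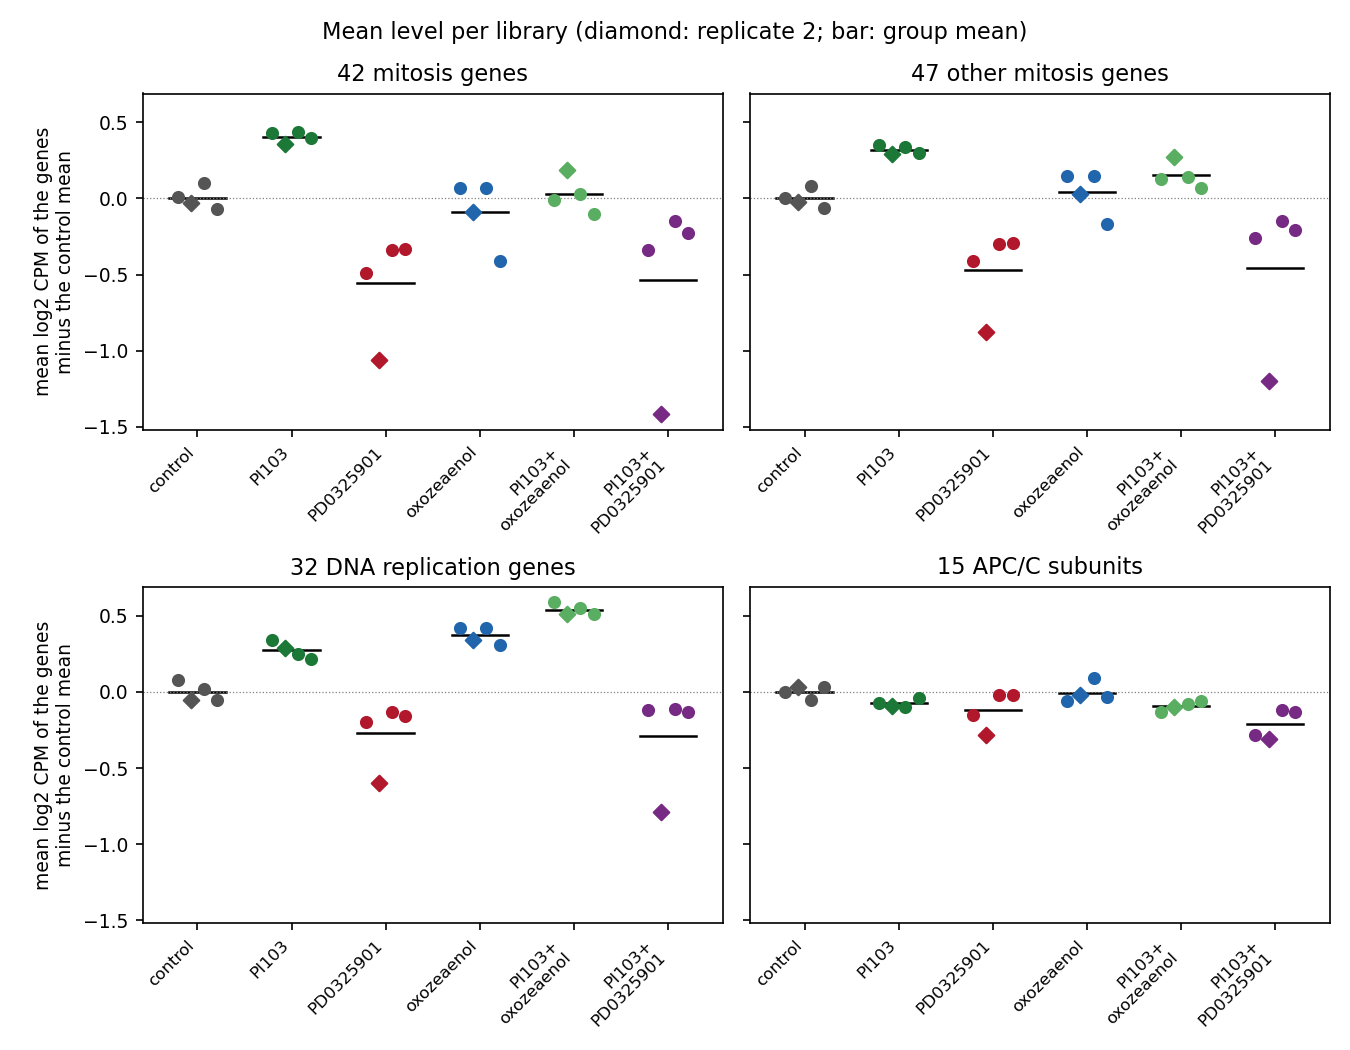
Mean log2 CPM of 4 gene lists in each library, minus the control mean (y axis), by treatment group (x axis), with replicate 2 as a diamond and the group mean as a bar. For the 42 mitosis genes the PI103 libraries lie at 0.36 to 0.44, above every control library, and the second replicates with PD0325901 lie at -1.06 and -1.42, below every other library of any group.

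Among the factors that switch the program on, FOXM1 was at 134, 119, 132 and 118 CPM in control, at 168, 169, 165 and 171 CPM with PI103 and at 109, 67.1, 96.5 and 97.6 CPM with PD0325901. The PI103 libraries lay above and the PD0325901 libraries below every control library. The rise with PI103 did not pass (log2 fold change 0.42, SE 0.183, edgeR's quasi-likelihood adjusted p = 0.059), while it passed with the batch as a block (0.0244), by DESeq2 (0.0405) and without both second replicates with PD0325901 (0.000585). FOXM1 fell with PD0325901 by 0.44 on the log2 scale (adjusted p = 0.0411), a call lost in the fits without any one of 7 of the 8 libraries, for example at 0.198 without PD0325901 replicate 2, 0.102 without control replicate 3 and 0.0507 without control replicate 4. An antisense gene overlaps 15.9% of the exonic bases of FOXM1, and whether the counting used strand is not known.

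The CDK1 module holds the kinase CDK1, its cyclins A2 (CCNA2), B1 (CCNB1) and B2 (CCNB2), and the activating phosphatases CDC25B and CDC25C. With PD0325901 4 of the 6 fell, and with PI103 1 rose, CDK1 itself. Here and for each role below, the shares of all genes were 29.9% lower with PD0325901 and 26.2% higher with PI103. Counts in groups this small were not tested against those shares, and several lie near or below them. CDK1 was at 230, 236, 254 and 197 CPM in control and at 410, 349, 421 and 406 CPM with PI103, groups that did not overlap, and it rose by 0.79 (SE 0.203, edgeR's quasi-likelihood adjusted p = 0.00222). With PD0325901 it was at 205, 139, 253 and 278 CPM, across the control range.
CCNA2, which acts with CDK1 and CDK2, was at 227, 230, 255 and 205 CPM in control, at 313, 277, 319 and 301 CPM with PI103 and at 150, 90.2, 164 and 184 CPM with PD0325901, 3 groups that did not overlap. It fell with PD0325901 by 0.64 (edgeR's quasi-likelihood adjusted p = 0.0159), and its log2 fold change of 0.40 with PI103 did not pass (adjusted p = 0.135, or 0.000689 when only those 2 groups were fitted and 0.00567 without both second replicates with PD0325901).
CCNB2, a B-type cyclin of CDK1, was at 213, 257, 216 and 274 CPM in control, at 233, 216, 230 and 257 CPM with PI103 and at 134, 76.4, 164 and 157 CPM with PD0325901. It was 1.80-fold lower with PD0325901 (log2 fold change -0.85, SE 0.22, adjusted p = 0.00194 by the same test; -0.66 and 4.04e-05 without both second replicates), and its log2 fold change with PI103 was -0.04. CCNB1, which CDK1 needs for entry into mitosis, was at 392, 406, 384 and 413 CPM in control, at 486, 457, 465 and 499 CPM with PI103 and at 289, 159, 361 and 370 CPM with PD0325901. Each group lay on its own side of control, yet neither log2 fold change passed (0.26 with PI103, adjusted p = 0.371, and -0.44 with PD0325901, adjusted p = 0.113, by edgeR's quasi-likelihood test). The PI103 value passed when only control and PI103 libraries were fitted (0.00505).

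Of the 5 mitotic kinases, AURKA, which acts at spindle poles, AURKB, of the chromosomal passenger complex, PLK1, PLK4, which starts centriole duplication, and NEK2, which separates centrosomes, 3 fell with PD0325901 and 2 rose with PI103. NEK2 was at 102, 124, 113 and 115 CPM in control and at 60.9, 35.9, 73.1 and 76.7 CPM with PD0325901, where it fell by 0.88 (SE 0.228, edgeR's quasi-likelihood adjusted p = 0.00195; by 0.69 and 0.000102 without both second replicates). With PI103 it was at 154, 135, 158 and 161 CPM, above every control library, with an adjusted p of 0.126, or 0.000506 when only those 2 groups were fitted.
PLK4 moved both ways against control. It was at 59.1, 60.4, 74.5 and 55.3 CPM in control, at 82.9, 77.5, 88.8 and 77.1 CPM with PI103 (log2 fold change 0.39, edgeR's quasi-likelihood adjusted p = 0.0252) and at 37.7, 31.3, 39.5 and 37.8 CPM with PD0325901 (-0.77, adjusted p = 5.86e-05). The PI103 call was lost without control replicate 1, 2 or 4 (adjusted p 0.0617, 0.0582 and 0.0822) and without PI103 replicate 3 (0.0731). AURKA with PI103 stayed inside the control range: it was at 220, 198, 220 and 203 CPM in control, at 210, 211, 202 and 206 CPM with PI103 and at 155, 106, 189 and 169 CPM with PD0325901, where it fell by 0.44 (adjusted p = 0.0435). That call was lost without PD0325901 replicate 1 or 2 (0.0911 and 0.221) and without any one control library (0.0526 to 0.11).

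The spindle checkpoint genes gave no call with PD0325901: 0 of 5 passed edgeR's quasi-likelihood test, and 0 of 5 passed it without both second replicates. With the batch as a block MAD2L1 (adjusted p = 0.0151) and BUB1 (0.0443) passed as lower. BUB1B, which encodes the checkpoint protein BubR1, was at 70.1, 54.3, 77.8 and 49.6 CPM in control, at 133, 127, 135 and 113 CPM with PI103 and at 63.3, 46.9, 66 and 61.3 CPM with PD0325901. It was 2.01-fold higher with PI103 (log2 fold change 1.01, SE 0.194, edgeR's quasi-likelihood adjusted p = 0.000133), and its log2 fold change with PD0325901 was -0.09. TTK, the kinase that starts checkpoint signalling, rose with PI103 by 0.59 (adjusted p = 0.0095 by the same test).
BUB3, which carries BUB1 and BubR1 to kinetochores, varied least of the 5. It was at 275, 253, 280 and 249 CPM in control, at 303, 282, 286 and 253 CPM with PI103 and at 226, 199, 262 and 235 CPM with PD0325901, ranges that overlap the control range in both cases. Same-strand genes overlap 10.2% of the exonic bases of BUB1B, and reads in shared bases may have been set aside.

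All 4 genes of anaphase onset fell with PD0325901, and 2 of them, PTTG1 and ESPL1, rose with PI103. CDC20, which activates the APC/C, was at 269, 245, 238 and 262 CPM in control, at 281, 295, 267 and 266 CPM with PI103 and at 182, 90.9, 205 and 173 CPM with PD0325901. It fell with PD0325901 by 0.64 (SE 0.24, edgeR's quasi-likelihood adjusted p = 0.0249; by 0.44 and 0.0109 without both second replicates), and the call was lost without PD0325901 replicate 2 alone (0.141).
ESPL1 encodes separase, which cuts cohesin, and PTTG1 encodes securin, its inhibitor. ESPL1 was at 43.5, 38.6, 36.1 and 38.5 CPM in control, at 67.1, 63.4, 65.2 and 74.4 CPM with PI103 and at 28.9, 17.1, 27.5 and 30.4 CPM with PD0325901. The 3 groups did not overlap. It rose by 0.79 with PI103 (adjusted p = 0.00203 by edgeR's quasi-likelihood test) and fell by 0.59 with PD0325901 (adjusted p = 0.0144, or 0.0875 without PD0325901 replicate 2). PTTG1, whose near-identical copies make its counts uncertain, rose by 0.60 and fell by 0.53 (adjusted p = 0.0225 and 0.0379). Its call with PI103 was lost without control replicate 3 (0.0571) or PI103 replicate 4 (0.0519), and that with PD0325901 without any one control library (0.0604 to 0.071) or PD0325901 replicate 1 or 2 (0.0847 and 0.197).

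In the centromere and kinetochore group, CENPA is the histone variant that marks centromeres, CENPE a kinetochore motor, CENPF a large kinetochore protein, and NUF2, NDC80 and SPC25 subunits of the NDC80 complex that holds microtubules. With PD0325901 3 of 6 fell and with PI103 2 rose. CENPF was at 159, 142, 205 and 133 CPM in control, at 280, 297, 337 and 325 CPM with PI103 and at 120, 85.9, 105 and 135 CPM with PD0325901. It was 1.94-fold higher with PI103 (log2 fold change 0.96, SE 0.221, edgeR's quasi-likelihood adjusted p = 0.000872). It fell with PD0325901 by 0.52 (adjusted p = 0.046), and that call was lost without control replicate 1 or 3 (0.069 and 0.205), without PD0325901 replicate 1, 2 or 3 (0.0666, 0.179 and 0.0955) and by DESeq2 (0.0541), but not without both second replicates (0.0067).
The 3 NDC80 complex subunits all had negative log2 fold changes with PD0325901. NUF2 fell with PD0325901 by 0.90 (adjusted p = 0.00125) and NDC80 by 0.57 (adjusted p = 0.00692), with log2 fold changes of -0.01 and -0.10 with PI103. SPC25 rose with PI103 by 0.57 (adjusted p = 0.0172), and with PD0325901 its log2 fold change was -0.40 (adjusted p = 0.0811, or 0.0274 with the batch as a block, all by edgeR's quasi-likelihood test).

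Of the 10 spindle motors and microtubule proteins, 5 rose with PI103 (KIF11, which makes the spindle bipolar, KIF20A, NUSAP1, PRC1 and DLGAP5) and 7 fell with PD0325901. KIF20A, the kinesin that brings the passenger complex to the central spindle, had the largest rise of all 42 genes with PI103. It was at 79.3, 58, 84.5 and 59.3 CPM in control and at 164, 170, 174 and 153 CPM with PI103, 2.35-fold higher (log2 fold change 1.23, SE 0.276, edgeR's quasi-likelihood adjusted p = 0.000696). With PD0325901 it was at 68.9, 41.5, 81 and 66.5 CPM, across the control range, with a log2 fold change of -0.12.
TPX2, which activates Aurora A on the spindle, showed the other pattern. It was at 380, 312, 424 and 328 CPM in control, at 470, 473, 478 and 396 CPM with PI103 and at 209, 166, 244 and 202 CPM with PD0325901. It fell with PD0325901 by 0.81 (SE 0.212, edgeR's quasi-likelihood adjusted p = 0.00207; by 0.73 and 0.000615 without both second replicates), and its log2 fold change with PI103 was 0.33 (adjusted p = 0.196, or 0.0101 when only those 2 groups were fitted). The microtubule depolymerase KIF2C fell by 0.80 and the chromokinesin KIF4A by 0.81 with PD0325901 (adjusted p = 0.00137 and 0.000765). KIF4A has a near-identical copy, and same-strand genes overlap 62.2% of the exonic bases of NUSAP1 and 57.6% of those of PRC1, so these 3 counts are less certain.

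ECT2, which is needed for cytokinesis, had the largest fall of all 42 genes. It was at 455, 496, 544 and 447 CPM in control and at 180, 127, 192 and 205 CPM with PD0325901, 2.76-fold lower (log2 fold change -1.46, SE 0.185, edgeR's quasi-likelihood adjusted p = 3.53e-07; -1.33 and 3.59e-09 without both second replicates). With PI103 it was at 528, 468, 566 and 460 CPM, across the control range, with a log2 fold change of 0.06 and a 95% interval of -0.32 to 0.43.
Anillin (ANLN), a scaffold of the contractile ring, rose with PI103. It was at 383, 328, 423 and 316 CPM in control, at 614, 559, 633 and 525 CPM with PI103 and at 283, 245, 293 and 294 CPM with PD0325901. It rose by 0.69 (SE 0.151, edgeR's quasi-likelihood adjusted p = 0.000507) and fell by 0.38 (adjusted p = 0.0344), the latter call being lost without control replicate 1 or 3 (0.0772 and 0.159) or PD0325901 replicate 1 or 2 (0.0706 and 0.131). BIRC5, which encodes survivin of the passenger complex, was called with neither compound.

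TOP2A, the topoisomerase that untangles sister chromatids, was at 763, 726, 907 and 702 CPM in control, at 1160, 1020, 1220 and 985 CPM with PI103 and at 536, 376, 544 and 578 CPM with PD0325901. The groups did not overlap. It fell with PD0325901 by 0.61 (SE 0.221, edgeR's quasi-likelihood adjusted p = 0.0218), a call lost without control replicate 3 (0.0861) or PD0325901 replicate 2 (0.112). Its log2 fold change with PI103 was 0.50 (adjusted p = 0.0614), which passed with the batch as a block (0.0427), by DESeq2 (0.0359) and without both second replicates with PD0325901 (0.00398). MKI67, the proliferation marker Ki-67 that coats mitotic chromosomes, fell with PD0325901 by 0.60 (adjusted p = 0.0132 by the first test).

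**Figure D3:**
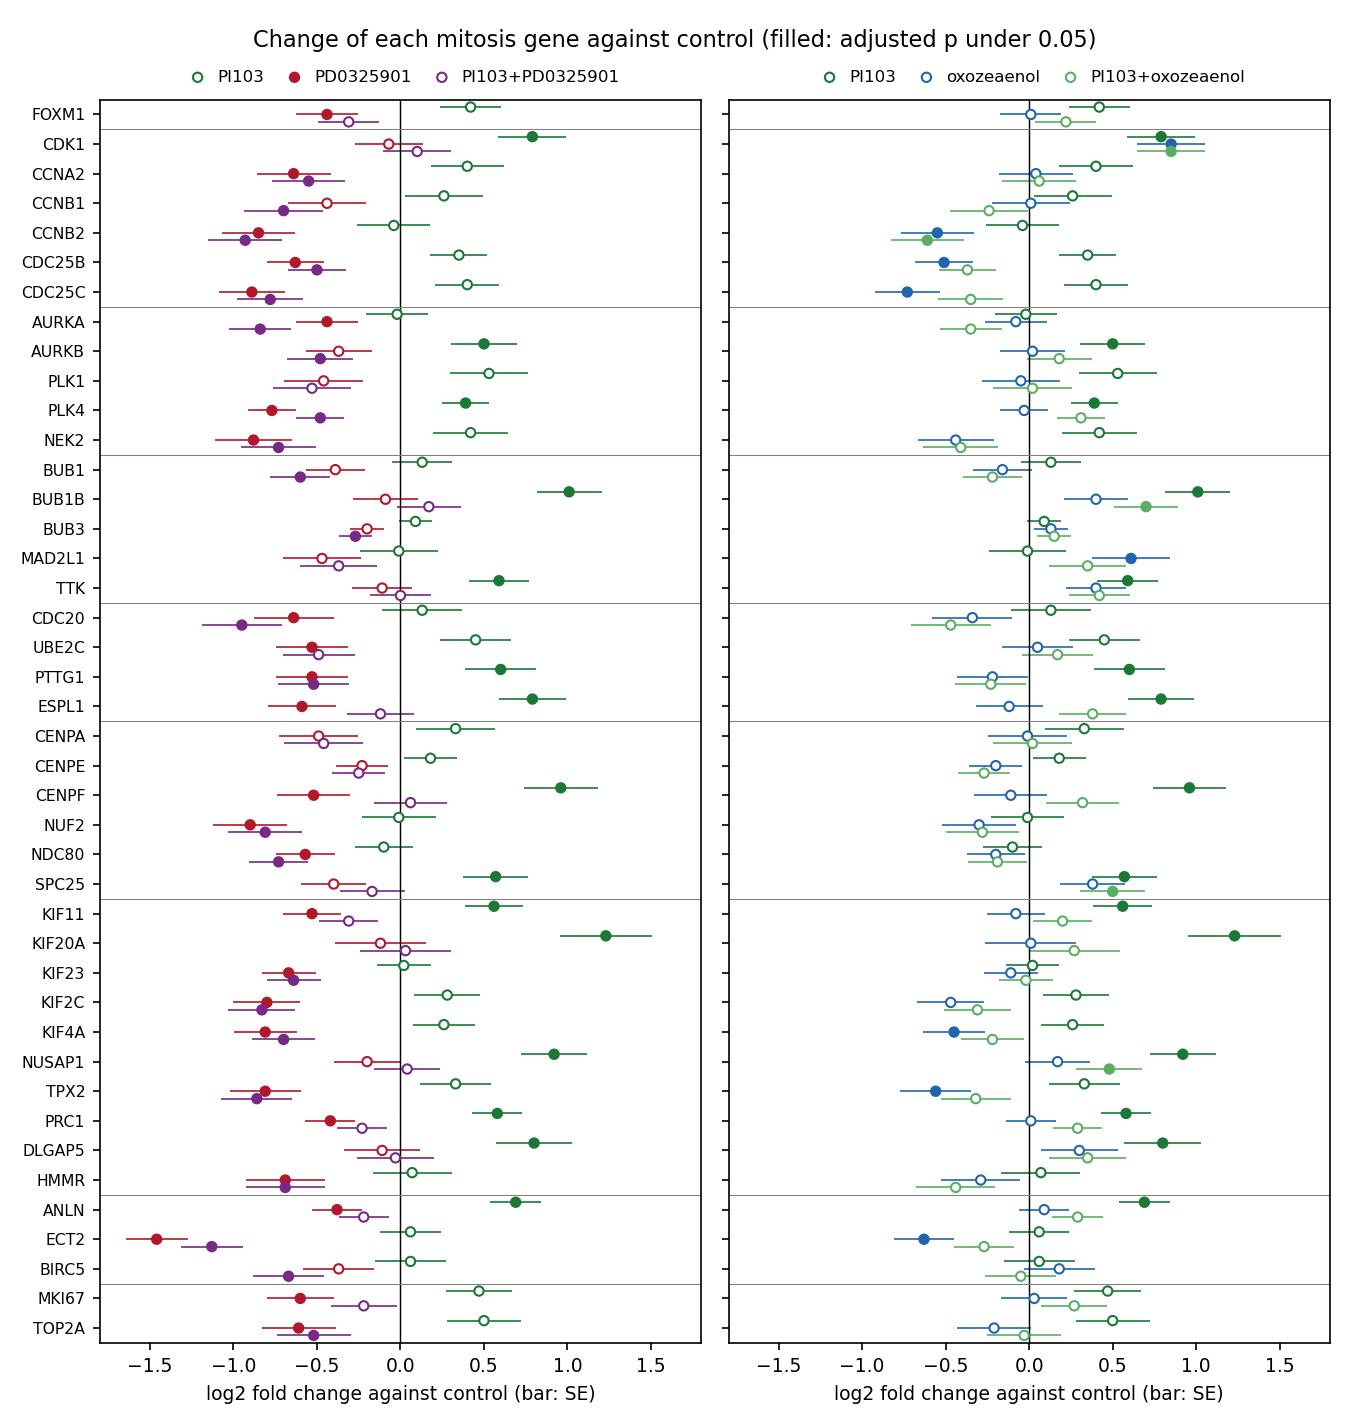
Log2 fold change against control (x axis, bar = SE) of each mitosis gene (rows, by role), at left for PI103, PD0325901 and both together, at right for PI103, oxozeaenol and both together, filled where the adjusted p was under 0.05. PI103 points lie mostly right of 0 and PD0325901 points left of 0, with KIF20A at 1.23 and ECT2 at -1.46 as the extremes.

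Compared with each other, the single agents differed at nearly every mitosis gene. With PD0325901 39 of 42 were lower than with PI103 and 0 were higher by edgeR's quasi-likelihood test, where 21.7% of all genes were lower and 22.9% higher, and the median log2 difference was -0.98. All 4 PD0325901 libraries lay below all 4 PI103 libraries for 39 genes and above for 0, against 19.6% and 20.1% of all genes. In each of the 4 batches all 42 genes were lower with PD0325901, with medians of -0.97, -1.47, -0.75 and -0.79. AURKA (-0.42, adjusted p = 0.0671), MAD2L1 (-0.45, 0.119) and BIRC5 (-0.44, 0.103) were the 3 not called. ECT2 was 2.87-fold lower (log2 difference -1.52, SE 0.185, adjusted p = 4.32e-07), CENPF 2.78-fold lower (-1.48, SE 0.224, adjusted p = 9.96e-06) and ESPL1 2.60-fold lower (-1.38, SE 0.203, adjusted p = 6.84e-06). The difference at ECT2 came with PI103 libraries that overlapped the control range, while at CENPF and ESPL1 the PI103 libraries lay above and most or all PD0325901 libraries below control. Without both second replicates 38 genes were lower, with a median of -0.82. Genes with and without the CHR letters of the promoters above had medians of -0.99 (25 genes) and -1.06 (10 genes) in this comparison. Only the window at the most upstream start was searched. A gene counted as without the letters may hold them near another start, and the medians were not compared by a test.

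With oxozeaenol some mitosis genes rose and others fell. Against control 6 fell and 2 rose by edgeR's quasi-likelihood test, fewer than the 26.1% and 25.7% of all genes, and the median was -0.06. All 4 libraries lay above all 4 controls for 4 genes and below for 5, against 20.2% and 22% of all genes. Without the second replicates with PD0325901, which are in no group of this comparison, 10 fell and 6 rose; scaled by library totals in place of TMM, 5 fell and 3 rose. With the batch as a block 7 fell and 4 rose, with BUB1B (adjusted p = 0.0387) and TTK (0.0389) added as higher and KIF2C (0.0299) as lower. CDK1 rose: it was at 381, 388, 493 and 384 CPM against 197 to 254 CPM in control, 1.80-fold higher (log2 fold change 0.85, SE 0.203, adjusted p = 0.0013). MAD2L1, the checkpoint protein that binds CDC20, was at 135, 171, 166 and 142 CPM in control and at 172, 213, 294 and 260 CPM with oxozeaenol, and rose by 0.61 (adjusted p = 0.0309). That call was lost without control replicate 1 or 4 (0.0744 and 0.0736) or oxozeaenol replicate 3 or 4 (0.109 and 0.071).
The 6 that fell were CCNB2, CDC25B, CDC25C, KIF4A, TPX2 and ECT2. ECT2 was at 336, 350, 351 and 218 CPM, below every control library, and fell by 0.63 (SE 0.182, adjusted p = 0.00562 by edgeR's quasi-likelihood test). CDC25C was at 33.3, 32.4, 35 and 34.4 CPM in control and at 24, 21.3, 21.6 and 14.4 CPM with oxozeaenol, and fell by 0.73 (SE 0.196, adjusted p = 0.00325). CCNB2 was at 166, 174, 187 and 128 CPM and fell by 0.55 (adjusted p = 0.0381), a call lost without control replicate 2 or 4 (0.0805 and 0.1) or oxozeaenol replicate 1 or 4 (0.0554 and 0.117). TPX2 fell by 0.56 (adjusted p = 0.0291), a call lost without control replicate 1 or 3 (0.0613 and 0.0974) or oxozeaenol replicate 4 (0.115).

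Oxozeaenol replicate 4 stood lower than the other libraries of its group. It was the lowest of its group for 37 of the 42 genes, against 33% of all genes, with a mean log2 level of -0.41 against -0.09 to 0.07 in the other 3. DUSP6 was also lowest there, at 12.8 CPM against 17.3 to 33.4 CPM. The library had the highest share of counts in no feature (8.57%, against 5.74% to 6.81% in the other 3) and of reads not uniquely placed (6.06%, against 5.16% to 5.29%), and 5.05% of all genes lay at least 1 log2 unit from the mean of the other 3, more than in any other library. Replicate 4 of PI103 with oxozeaenol had similar shares (8.5% and 6.05%) and was the lowest of its group for 28 of the 42 genes, against 34.3% of all genes. The part of these values in the results for oxozeaenol was not tested. Without oxozeaenol replicate 4, 3 genes were called against control, 2 lower and 1 higher, and without control replicate 1 or 4 there were 4 and 5.

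Set against the other single agents, oxozeaenol lay between them. With oxozeaenol 18 genes were lower and 1 higher than with PI103, where 20.6% of all genes were lower and 22.5% higher, and the median log2 difference was -0.48. Without the second replicates with PD0325901 32 were lower and 1 higher. KIF20A (-1.23, SE 0.276, adjusted p = 0.00107), CDC25C (-1.13, SE 0.197, adjusted p = 7.06e-05) and CENPF (-1.07, SE 0.222, adjusted p = 0.000439) differed most by edgeR's quasi-likelihood test, and the 1 that was higher was MAD2L1. Against PD0325901, 14 genes were higher and 0 lower, where 13.4% of all genes were higher and 15.1% lower, with a median of 0.42. MAD2L1 (1.08, SE 0.235, adjusted p = 0.00163), CDK1 (0.91, SE 0.204, adjusted p = 0.002) and ECT2 (0.83, SE 0.183, adjusted p = 0.0017) differed most. All 4 oxozeaenol libraries lay above all 4 PD0325901 libraries for 11 genes, against 9.45% of all genes. The count of 14 became 19 without both second replicates with PD0325901 and 5 without PD0325901 replicate 2 alone. It was 8 without PD0325901 replicate 1, 6 without oxozeaenol replicate 1, 7 without oxozeaenol replicate 3 and 21 without oxozeaenol replicate 4. Shares of all genes called in the alternative fits were not set beside the counts of this paragraph. Within batches the medians were 0.57, 0.93, 0.39 and -0.07.

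**Figure D4:**
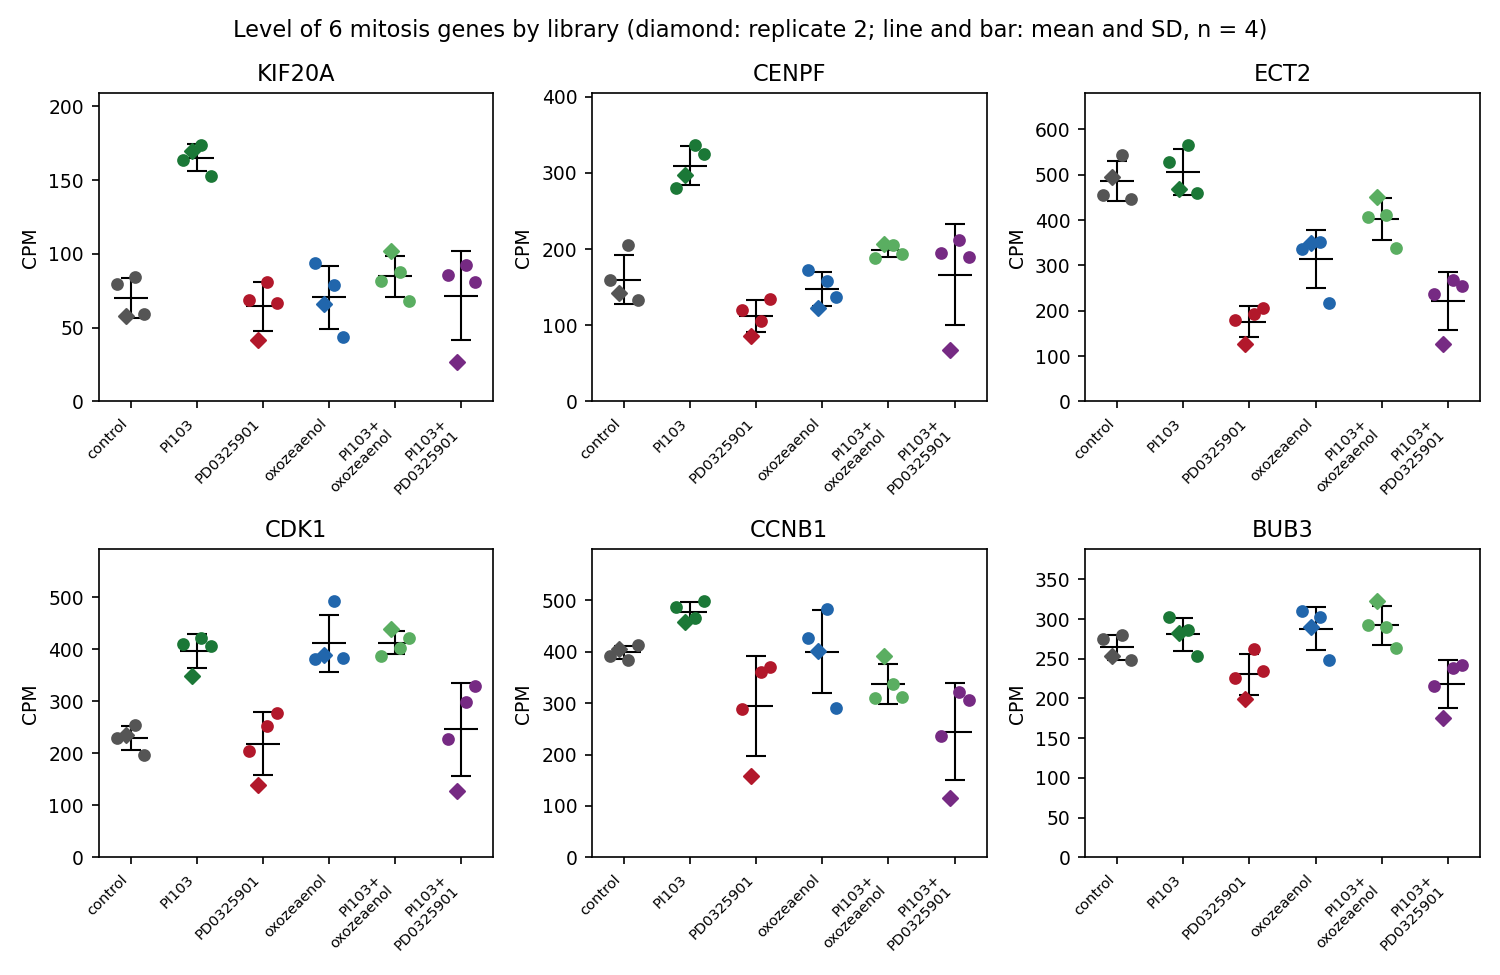
CPM (y axis, from 0) of KIF20A, CENPF, ECT2, CDK1, CCNB1 and BUB3 in every library by treatment group (x axis), with replicate 2 as a diamond and the mean and SD of 4 libraries as lines. KIF20A and CENPF are highest with PI103, ECT2 is lowest with PD0325901, and CDK1 lies at 349 CPM or higher in all libraries with PI103, oxozeaenol or both and at 330 CPM or lower in all others.

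When PI103 was given with PD0325901, the mitosis genes followed PD0325901. Against control 23 fell and 0 rose by edgeR's quasi-likelihood test, where 32.6% of all genes fell and 32.2% rose, and the median was -0.49. The libraries had mean log2 levels of -0.34, -1.42, -0.15 and -0.23, and all 4 lay below all 4 controls for 24 genes, against 28.9% of all genes. Without both second replicates 21 fell and 4 rose, with a median of -0.28. The 4 were CDK1 (0.32, adjusted p = 0.0252), BUB1B (0.39, 0.0129), CENPF (0.32, 0.0288) and NUSAP1 (0.27, 0.022), with log2 fold changes of 0.10, 0.17, 0.06 and 0.04 with all libraries. BUB3 (adjusted p = 0.0201) and TOP2A (0.041), called with all libraries, were not called without the 2 (0.0839 and 0.105) or without the combination's replicate 2 alone (0.108 and 0.141). The BUB3 call was also lost without control replicate 3 (0.0679), and the TOP2A call without any one of control replicates 1 to 3 (0.0502 to 0.122).
Scaling by library totals moved the median of all genes in this comparison from 0.01 to 0.13, and the median of the mitosis genes to -0.36, with 17 falling.

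ECT2 was again the gene that fell most. It was at 237, 127, 268 and 255 CPM, 2.19-fold below control (log2 fold change -1.13, SE 0.184, edgeR's quasi-likelihood adjusted p = 9.03e-06; -0.94 and 7.23e-07 without both second replicates). CDC20 was at 146, 60.4, 168 and 152 CPM and fell by 0.95 (adjusted p = 0.00146), CCNB2 was at 125, 60.7, 160 and 158 CPM and fell by 0.93 (adjusted p = 0.000749), and AURKA was at 126, 67.9, 142 and 135 CPM and fell by 0.84 (adjusted p = 0.000394). These 4 stayed below every control library in all 4 replicates. KIF20A, the gene PI103 alone raised most, was at 85.5, 26.8, 92.7 and 81.1 CPM, with a log2 fold change of 0.03.

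Against PI103 alone, 41 of 42 genes were lower in this combination and 0 higher, where 19.9% of all genes were lower and 18.8% higher, with a median of -0.86. All 4 libraries lay below all 4 PI103 libraries for 41 genes, against 20.1% of all genes. All 42 were lower in every batch, with medians of -0.80, -1.81, -0.58 and -0.65. KIF20A (-1.21, SE 0.276, adjusted p = 0.0014), ECT2 (-1.19, SE 0.184, adjusted p = 2.07e-05) and TPX2 (-1.19, SE 0.214, adjusted p = 0.000131) differed most by edgeR's quasi-likelihood test, and MAD2L1 was the 1 not called. Without both second replicates 40 were lower. PI103 had 50% of its single-agent concentration in the combination.
Against PD0325901 alone, 0 of 42 genes were called by edgeR's quasi-likelihood test, where 10% of all genes were lower and 8.06% higher. At an unadjusted p under 0.05 there were 3, and DESeq2 called 0. The median was 0.09, and the 95% intervals, unadjusted and with a median half-width of 0.41, differed between genes. That of BUB3 was narrow, at -0.29 to 0.13, while those of AURKA (-0.78 to -0.01), ESPL1 (0.05 to 0.88) and CENPF (0.12 to 1.03) left out 0. The direction differed between batches: the medians were 0.16, -0.34, 0.22 and 0.10, with 41 of 42 genes lower in batch 2. Without both second replicates 7 were higher in the combination (PLK4, ESPL1, CENPF, NUSAP1, PRC1, ECT2 and MKI67), of which CENPF differed most (0.73, adjusted p = 0.000392). Without PD0325901 replicate 2 alone 2 were lower, and without the combination's replicate 2 alone 10 were higher, so the direction turns on which second replicate is kept.

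When PI103 was given with oxozeaenol, the rise with PI103 was mostly gone. Against control 4 genes rose (CDK1, BUB1B, SPC25 and NUSAP1) and 1 fell (CCNB2) by edgeR's quasi-likelihood test, fewer than the 27.7% and 27.9% of all genes, and the median was 0.02. CDK1 was at 387, 438, 403 and 422 CPM and rose by 0.85 (SE 0.203, adjusted p = 0.00107), BUB1B was at 105, 117, 102 and 86.2 CPM and rose by 0.70 (SE 0.193, adjusted p = 0.00348), and CCNB2 was at 152, 175, 151 and 151 CPM and fell by 0.61 (adjusted p = 0.0211, or 0.0634 without control replicate 4). The counts depended on the fit: 8 were called with the batch as a block, 21 (9 lower, 12 higher) without both second replicates with PD0325901, and 28 (13 lower, 15 higher) when only this combination and control were fitted. Leaving out control replicate 1 or 4 or the combination's replicate 2 gave 3, 2 and 3. The shares of all genes called in these fits were not set beside the counts. Whether the changes in count are particular to the mitosis genes is therefore not shown. All 4 libraries lay above control for 11 genes and below for 6, against 25.8% and 26.8% of all genes. Replicate 2 was the highest library of this group for 38 of the 42 genes.
Against PI103 alone 9 were lower and 0 higher, where 8.92% of all genes were lower and 9.39% higher, with a median of -0.36. KIF20A (-0.96, SE 0.274, adjusted p = 0.0165), NEK2 (-0.83, SE 0.227, adjusted p = 0.0118) and PTTG1 (-0.83, SE 0.215, adjusted p = 0.00801) differed most, and the KIF20A call was lost without the combination's replicate 1 (0.0525) or 4 (0.0658). This count was 28 without both second replicates with PD0325901 and 34 (33 lower) when only these groups were fitted, but 4 or 5 without PI103 replicate 1, 2 or 3 or without the combination's replicate 1, 3 or 4. Here too, shares of all genes in the alternative fits were not set beside the count. Against oxozeaenol alone 0 were called by edgeR's quasi-likelihood test (2 at an unadjusted p under 0.05, 0 by DESeq2, 1 with the batch as a block), where 7.28% of all genes were lower and 7.59% higher, with a median of 0.10. The 95% intervals had a median half-width of 0.41 and lay between -0.74 and 0.91 at their outer ends, and those of PLK4 (0.04 to 0.63) and ESPL1 (0.09 to 0.91) left out 0. Without the 2 doubted libraries 7 were higher, of which ESPL1 differed most (0.50, adjusted p = 0.000262). Without oxozeaenol replicate 1 alone 1 was higher.

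The combinations differed from each other in the same direction as the single agents added to PI103. With PD0325901 as the partner 18 genes were lower than with oxozeaenol as the partner and 0 higher, where 15.6% of all genes were lower and 14.3% higher, with a median of -0.50. ECT2 (-0.86, SE 0.183, adjusted p = 0.00106), PLK4 (-0.78, SE 0.143, adjusted p = 0.000236) and CDK1 (-0.75, SE 0.203, adjusted p = 0.00746) differed most by edgeR's quasi-likelihood test. Batch 2 carried much of the size, with within-batch medians of -0.33, -1.63, -0.22 and -0.12. Without both second replicates with PD0325901 15 were lower, without the last combination's replicate 2 alone 9, and without replicate 2 of PI103 with oxozeaenol 10.

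Each combination was also set against the mean of its single agents on the log2 scale, which is the log2 value halfway between them. For PI103 with oxozeaenol 0 of 42 genes differed by edgeR's quasi-likelihood test (1 at an unadjusted p under 0.05, 0 by DESeq2), where 1.1% of all genes were lower and 2.88% higher, and the 95% intervals had a median half-width of 0.36, with outer ends at -0.84 and 0.47. Without the second replicates with PD0325901 4 were lower. For PI103 with PD0325901 10 were lower and 0 higher, where 11.1% of all genes were lower and 10.8% higher, with a median of -0.38. CDC20 (-0.69, SE 0.213, adjusted p = 0.0233), TPX2 (-0.61, SE 0.188, adjusted p = 0.0216) and CCNB1 (-0.61, SE 0.208, adjusted p = 0.0364) differed most. All 3 calls were lost without the combination's replicate 2 (0.112, 0.0961 and 0.168), that of CDC20 also without PD0325901 replicate 3 (0.0523), and that of CCNB1 also without PI103 replicate 1 (0.0505), PD0325901 replicate 3 or 4 (0.0743 and 0.0627) or the combination's replicate 1 (0.076). This count rested on single libraries: it was 0 without the combination's replicate 2, 25 without PD0325901 replicate 2, 2 without PD0325901 replicate 3, 6 without PD0325901 replicate 4 and 18 without the combination's replicate 3. It was 13 without both second replicates, 21 with the batch as a block and 18 by DESeq2.

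**Figure D5:**
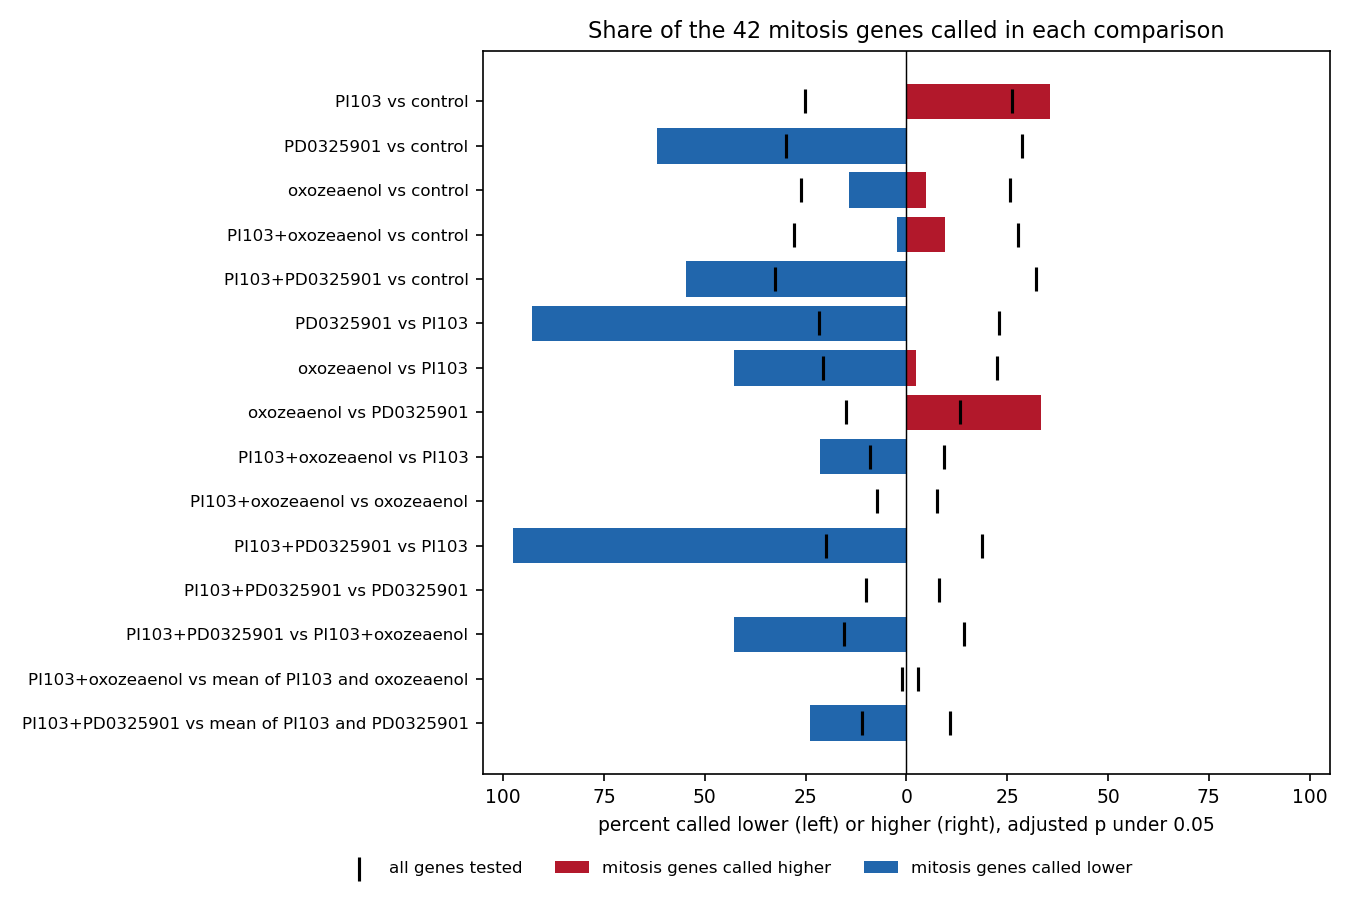
Percent of the 42 mitosis genes called lower (blue, left) or higher (red, right) at an adjusted p under 0.05 in each of 15 comparisons (rows), with black ticks for the percent of all 13947 genes tested. The longest bars are the 39 and 41 genes lower than with PI103 alone, and 3 comparisons have no bar: each combination against the agent other than PI103, and PI103 with oxozeaenol against the mean of its agents.

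Genes of the same pathways outside the 42 were counted from fixed lists, and the counts stand beside the shares of all genes given for each comparison above. Of 47 other mitosis genes, such as shugoshins, CENP proteins and further kinesins, 17 rose and 2 fell with PI103 (median 0.28), 27 fell and 1 rose with PD0325901 (median -0.47), and 27 fell and 1 rose with both (median -0.44). SKA1, a kinetochore protein that tracks microtubule ends, was 1 of the 2 that fell with PI103 (by 0.79, SE 0.138, adjusted p = 3.47e-05) and fell by 1.09 with PD0325901 and 1.31 with both (adjusted p = 2.77e-07 and 9.52e-09). FAM64A (also named PIMREG) fell by 0.96 and 1.08 in the same 2 groups (adjusted p = 0.00323 and 0.00107). All 8 condensin subunits, which compact chromosomes, fell with PD0325901, and 3 of 8 rose with PI103. NCAPH2 fell by 0.69 with PD0325901 and 0.70 with both (adjusted p = 7.78e-06 and 4.65e-06), and NCAPH by 0.61 and 0.59 (0.00162 and 0.00187).

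Of 15 APC/C subunits 6 fell and 4 rose with PI103, and 5 fell and 2 rose with PD0325901. ANAPC10 fell in both (by 0.95, adjusted p = 1.85e-05, and by 0.89, adjusted p = 2.85e-05) and ANAPC7 fell most with both compounds together after it (by 0.80, adjusted p = 2.72e-07). Of 10 cohesin genes 3 rose and 0 fell with PI103, where 26.2% of all genes rose and 25.2% fell, and 6 fell and 0 rose with PD0325901, where 29.9% fell and 28.7% rose. MAU2, a cohesin loader, rose by 0.43 with PI103 and 0.41 with both (adjusted p = 2.83e-05 and 2.94e-05), and the cohesin ring subunit SMC3 fell by 0.52 with PD0325901 and 0.38 with both (0.000548 and 0.00728).
Of 8 further regulators of CDK1, 6 fell with PD0325901 and 0 rose, and with PI103 1 fell and 0 rose. CKS1B, a CDK-binding subunit, fell by 0.90 and PKMYT1, the inhibitory kinase of CDK1, by 0.75 with PD0325901 (adjusted p = 0.00171 and 0.000262). Of 12 DREAM and MuvB genes 7 fell and 3 rose with PD0325901, and 4 fell and 3 rose with PI103. RBL2, the pocket protein p130 of the DREAM complex, rose in all 5 treatments, by 0.94 (PI103), 0.53 (PD0325901), 0.25 (oxozeaenol), 0.61 (PI103 plus oxozeaenol) and 0.91 (PI103 plus PD0325901; adjusted p = 1.61e-08, 4.29e-05, 0.0331, 8.12e-06 and 1.02e-08). LIN9, a subunit of the MuvB core, fell in all 5, by 0.44, 0.90, 0.37, 0.44 and 0.87 in the same order (adjusted p = 0.0101, 5.81e-06, 0.0307, 0.00927 and 7.42e-06). All values in these paragraphs on other lists come from edgeR's quasi-likelihood test.

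DNA replication genes, which act in S phase, were counted in the same way, and their difference from the mitosis genes was not tested. Of 32, 16 rose and 3 fell with PI103 (median 0.33), where 26.2% of all genes rose and 25.2% fell. With PD0325901 13 fell and 1 rose (median -0.24; 29.9% and 28.7% of all genes), and with PI103 and PD0325901 15 fell and 1 rose (median -0.26; 32.6% and 32.2%). With oxozeaenol 16 rose and 0 fell (median 0.32), where 25.7% of all genes rose and 26.1% fell, beside a median of -0.06 for the mitosis genes. With PI103 and oxozeaenol 25 rose and 0 fell (median 0.54), where 27.7% of all genes rose and 27.9% fell, beside a median of 0.02. PRIM1, the primase subunit, and CDC6, which loads the replicative helicase, fell by 1.00 and 0.93 with PD0325901 and each by 1.03 with both compounds (edgeR's quasi-likelihood adjusted p = 1.96e-05, 9.36e-08, 1.07e-05 and 1.18e-08). CDC6 also fell with PI103 (by 0.42, adjusted p = 0.00242). In the second replicates with PD0325901, alone and combined, the replication genes lay a median of 0.40 and 0.68 (log2) below the mean of the other 3 libraries of their group. By the same measure the mitosis genes lay 0.65 and 1.21 below and the APC/C subunits 0.11 below in both.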

How the data were processed

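Stranded mRNA libraries were made per the labels' protocols, and the authors deposited 1 table of raw gene counts, with GRCh38 named per the submitters' processing notes. Aligner, counter, annotation and strand setting are not given in the sources used here. Rows for unassigned reads were left out of the totals: no feature 4.24% to 8.57% of all counts, ambiguous 1.57% to 2.01%, not unique 4.64% to 6.06%. Groups came from the sample titles.

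In R 4.3.3, edgeR 4.0.16 (limma 3.58.1) scaled the 24 libraries by TMM, filtered low counts with filterByExpr, leaving 13947 of 23368 genes, and fitted 1 quasi-likelihood model with a mean per group and 18 residual degrees of freedom. There were 15 contrasts, each adjusted over all genes tested by the method of Benjamini-Hochberg, with calls under 0.05. CPM is TMM-scaled, and log2 CPM used a prior count of 2. The edgeR test was also tried on simulated counts, with the spread taken from the fit of these data. Those counts held no batch effect and no library that stood apart. The labels call the replicates biological, and p-values measure the spread between these samples.

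Replicate numbers are given as batches in the labels, so they pair the samples. The main fit, and so every main call, did not use this pairing, which entered only as the block for batch among the alternatives. Deviations of same-numbered libraries correlated at a mean r of 0.12 over 60 pairs, against -0.04 over 180 pairs with different numbers. Alternatives were DESeq2 1.42.0, other scaling, no filter, a block for batch, only the compared groups, a minimum log2 change of 1, and leaving out libraries.

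The members and lists were chosen with earlier results of these data known. Named genes are, in each role, the most abundant member and the one that changed most against control, every member called against the prevailing direction, the 3 largest calls of other contrasts and the 2 largest of each further list. CCNA2, given with its values by library, and the other members given with 1 or 2 values fall outside this rule. They were chosen after their values were seen.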

Additional observations from a re-analysis of the deposited data

Results flagged for a closer look

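In groups of 4 libraries, a library is listed here when its gap to the nearest other, as a share of the group's range, exceeded 0.829 (Dixon's 95% value). Of 126 groups tested over 20 named genes and the mean level of the mitosis genes, 9 exceeded it, and chance gives about 1 in 20.

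Of the 9, 5 are replicate 2 of PI103 with PD0325901. Its mean log2 level of the mitosis genes was -1.42, against -0.34 to -0.15 in the other 3 libraries. CENPF was at 67.8 CPM (others 190 to 212), ANLN, the anillin gene, at 185 CPM (342 to 370), CDC25C at 9.49 CPM (22.1 to 23.8) and PLK4 at 25.4 CPM (50.6 to 52.7).

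The other 4 lie in different groups. TPX2 was at 396 CPM in PI103 replicate 4 (others 470 to 478). ECT2 was at 218 CPM in oxozeaenol replicate 4 (336 to 351), the library lowest for most mitosis genes in that group, and CDK1 was at 493 CPM in oxozeaenol replicate 3 (381 to 388). CCNB2 was at 175 CPM in replicate 2 of PI103 with oxozeaenol (151 to 152).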

How the results depend on the processing

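Over 121 values of 20 named genes and 1948 alternative values, 1739 kept their side of the threshold, 148 lost the call and 61 gained one. Of the values called in the main fit, 0 changed direction. Changes of direction among values not called were not counted. KIF20A with PD0325901 was 1 such change, at a log2 fold change of 0.04 without both second replicates. The counts of mitosis genes called depended more on the processing, and causes were not tested. The shares of all genes called in the same alternative fits were not set beside these counts. Leaving out 1 library at a time, the counts against control ranged 13 to 14 (PI103), 11 to 27 (PD0325901), 3 to 8 (oxozeaenol), 2 to 6 (PI103 with oxozeaenol) and 17 to 25 (PI103 with PD0325901). They ranged 32 to 41 for PD0325901 against PI103, 17 to 24 for oxozeaenol against PI103, 5 to 21 for oxozeaenol against PD0325901, 4 to 8 and 0 to 1 for PI103 with oxozeaenol against each single agent, and 39 to 41 and 0 to 10 for PI103 with PD0325901 against each. They ranged 9 to 27 between the combinations, and 0 to 0 and 0 to 25 against the means of the single agents. Fitting only the compared groups gave 29 (PI103), 14 (oxozeaenol) and 28 (PI103 with oxozeaenol) against control, 33 and 34 for the last 2 against PI103, 3 for PI103 with oxozeaenol against oxozeaenol, 11 between the combinations, and 5 and 4 against the means. A minimum log2 change of 1 left, against control, 2 (PI103), 1 (PD0325901), 0 (oxozeaenol), 0 (PI103 with oxozeaenol) and 1 (PI103 with PD0325901). Against PI103 it left 18, 3, 0 and 10 for the same treatments in order, 1 for oxozeaenol against PD0325901, 0 between the combinations and 0 for PI103 with PD0325901 against the mean. With no low-count filter there were 5 and 3 against control (oxozeaenol, PI103 with oxozeaenol), 8 for oxozeaenol against PD0325901, 5 for PI103 with oxozeaenol against PI103, 9 between the combinations and 1 for PI103 with PD0325901 against the mean, where DESeq2 gave 18. With the replicate block there were 8 for PI103 with oxozeaenol against control, 1 against oxozeaenol and 21 for PI103 with PD0325901 against the mean; the block ended the call of no named gene. Library totals in place of TMM gave 9 for PI103 with oxozeaenol. Without both second replicates with PD0325901, chosen after seeing the data for contrasts without that compound, there were 26, 16 and 21 against control (PI103, oxozeaenol, PI103 with oxozeaenol), 33 and 28 for the last 2 against PI103, 7 for each combination against the agent other than PI103, and 4 for PI103 with oxozeaenol against the mean. At 38.1 M to 84.2 M counts a library, depth limits these genes less than the spread between replicates, with a common biological coefficient of variation of 0.131.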
